A study of Triticum aestivum with 4 samples.

Results

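Core histones are the proteins around which DNA is wound in the nucleosome. H2A pairs with H2B and H3 pairs with H4, and plants carry many gene copies for each, most of them active when cells copy their DNA. In plants cytosine is methylated in CpG, CHG and CHH sites, with H for any base but G. CpG methylation is kept by a maintenance methyltransferase and also occurs in the bodies of active genes, while CHG and CHH methylation is known mainly from transposons and silent sequence, where CHG methylation and methylated histone H3 reinforce each other.

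The core histone genes described here are 10 wheat genes with the description histone H2A, H2B, H3 or H4. They were chosen by identifier from lists of differentially methylated regions, with earlier results of these data known. They hold 11 of the 3119 listed regions and 10 of the 2811 listed genes. The set consists of 2 H2A, 3 H2B, 3 H3 and 2 H4 genes, which have 5 regions for H2A and H2B and 6 for H3 and H4. Every listed region had passed the authors' own selection, and positions below are those of the lists, whose genome build is not given in the sources used here. There were 8 CHG regions, 3 CpG regions and no CHH region. A further gene described as histone H3.2, listed in CHH, is not one of the 10 and is given at the end.

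Treated and untreated seedlings of the winter wheat breeding line SE15 were compared. In the ultrasound group, dry seeds of 13.6% water content received 30 kHz ultrasound at 70 W for 5 min in open dishes, 4 cm from the ultrasound head. The control group received no ultrasound, and each group had 100 seeds. Both groups germinated in darkness at 20 °C until day 7, when seedlings were collected. Levels were analysed here for 1 of the 2 libraries that the labels name in each group, ultrasound library 1 and control library 1. The column taken as control carries the letter K, which the labels do not explain. A level thus has no replicate, the groups could not be tested against each other, and the read depth behind a level is unknown. Below, higher and lower describe the ultrasound library against the control library, and a difference is the ultrasound level minus the control level, in percentage points.

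Histone regions stood on both sides of 0. Of the 9 regions with a level in both libraries, 6 were lower and 3 were higher in the ultrasound library. Over all listed CpG and CHG regions, 76.7% were lower, so 6 of 9, or 66.7%, was near that share. The median difference over the 9 regions was -6.62 points, against -9.70 points over all listed CpG and CHG regions. The mean difference was -1.22 points, against -7.08 points over all listed CpG and CHG regions. The differences ran from -21.2 points at an H2A gene to 37.0 points at an H4 gene. In 7 of the 9 regions the libraries differed by at least 10 points, which 67.6% of all listed CpG and CHG regions also did.

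**Figure D1:**
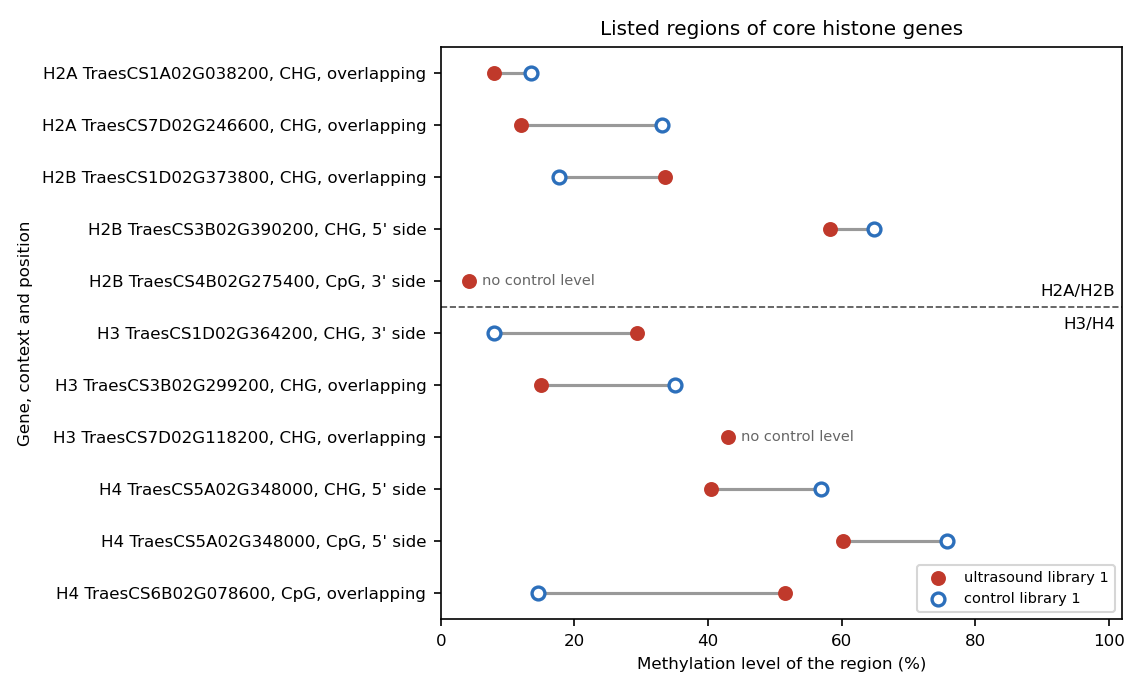
Methylation level in percent (x axis) of each of the 11 listed regions of core histone genes, with filled points for ultrasound library 1 and open points for control library 1. Rows name the histone, gene, context and position, and a dashed line parts H2A and H2B from H3 and H4. The filled point lies to the right in 3 regions and to the left in 6, and 2 regions have no control level.

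H2A contributes most of the acidic patch on the nucleosome surface, and both of its genes were lower in CHG over the gene. Of all listed CHG regions overlapping genes, 80.6% were lower. At TraesCS7D02G246600 (7D, 215928256 to 215929439, overlapping the gene, plus strand) the level was 11.9% in the ultrasound library and 33.1% in the control library, a difference of -21.2 points. It was the largest decrease among the histone regions, and 9.76% of listed CHG regions had a lower difference. At TraesCS1A02G038200 (1A, 21022174 to 21023114, overlapping, plus strand) the level was 7.95% in the ultrasound library and 13.5% in the control library, a difference of -5.56 points. The second H2A difference was smaller in size than the median over all listed CHG regions, -8.87 points.

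H2B is the partner of H2A, and its 2 regions with both levels had opposite directions. At TraesCS1D02G373800 (1D, 451524040 to 451524730, overlapping, plus strand) the CHG level was 33.6% in the ultrasound library and 17.6% in the control library, a difference of 16.0 points. At TraesCS3B02G390200, described as histone H2B.5 (3B, 614266625 to 614267898, minus strand), the CHG level was 58.2% in the ultrasound library and 64.9% in the control library, a difference of -6.62 points. This region lay beside the gene and was heavily methylated in both libraries: 98.3% of listed CHG regions had a lower control level. The third gene, TraesCS4B02G275400 (4B, 553864803 to 553865819, plus strand), had a CpG level of 4.17% in the ultrasound library and none in the control library, so it has no direction.

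H3 is the histone whose tail carries many regulatory marks, and its 2 regions with both levels differed in direction and in place. A CHG region beside TraesCS1D02G364200 (1D, 445319848 to 445320461, plus strand) was at 29.4% in the ultrasound library and 7.90% in the control library, a difference of 21.5 points and a ratio of 3.72. A CHG region over TraesCS3B02G299200 (3B, 479985951 to 479986706, minus strand) was at 15.0% in the ultrasound library and 35.0% in the control library, a difference of -20.0 points. The lists describe both of these genes by the same protein database entry, and their regions stood at opposite signs with differences of similar size. The regions are not like places, as that on 1D lay 1545 bp from its gene and that on 3B overlapped its gene. The region over TraesCS7D02G118200 (7D, 73117110 to 73118237, minus strand) was at 43.0% in the ultrasound library and had no control level. No other CHG region over a histone gene was as high in either library.

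H4 is the most conserved of the core histones. The CpG region over TraesCS6B02G078600 (6B, 55121638 to 55122080, plus strand) was at 51.6% in the ultrasound library and 14.6% in the control library, a difference of 37.0 points and a ratio of 3.55. It was the largest difference among the histone regions in either direction, in the shortest region, of 443 bp. Of all listed CpG regions, 92.5% had a lower difference. TraesCS5A02G348000, described as H4 variant TH011 (plus strand), was the one gene of the 10 listed in more than 1 context. Its CpG region (5A, 551040290 to 551041090) was at 60.2% in the ultrasound library and 75.7% in the control library, a difference of -15.5 points. Its CHG region (5A, 551039632 to 551041128) was at 40.4% in the ultrasound library and 57.0% in the control library, a difference of -16.6 points. The CpG region, of 801 bp, lay wholly within the CHG region, of 1497 bp, so these 2 values come from overlapping stretches in the same libraries.

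The order of the H2A and H2B genes against the H3 and H4 genes depended on how they were counted. The 4 regions of H2A and H2B had a median difference of -6.09 points, with 3 lower and 1 higher. The 5 regions of H3 and H4 had a median of -15.5 points, with 3 lower and 2 higher. All 4 H2A and H2B regions were CHG, and the H3 and H4 regions included the 2 CpG regions with both levels. The H3 and H4 median was itself a CpG value. Over all listed regions the median was -18.3 points in CpG and -8.87 points in CHG, so class and context cannot be told apart here. With each gene counted once, the order turned round: the H2A and H2B median stayed at -6.09 points over 4 genes, and the H3 and H4 median became 2.71 points over 4 genes. By gene, all 4 H3 and H4 values were at least 10 points from 0, against 2 of 4 for H2A and H2B. Of all listed CpG and CHG regions, 67.6% were that far from 0. By context these were 437 of 480 listed CpG regions and 941 of 1557 listed CHG regions with both levels. The H2A and H2B values were all CHG and those of H3 and H4 were not, so this contrast cannot be told apart from context. The shift of the H3 and H4 median comes from counting the H4 gene on 5A as 1 value in place of 2. That value is the mean of its CpG and CHG differences.

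The place of a flanking region was read from a word in the lists, by a rule that rests on distances. The lists give an orientation word, upstream or downstream, and a distance to the gene. Where 1 gene had several listed regions on a flank, the distances fix the gene edge, and in 97 of 97 such pairs of regions over the whole series the word gave the place of the gene as seen from the region. In these pairs a region marked downstream lay on the 5′ side of its gene, and one marked upstream on the 3′ side, and the same reading was applied to flanking regions outside such pairs. For the H4 gene on 5A, marked downstream on the plus strand, both regions put the near gene edge at the same position, 551041410, above the ends of the regions. The other flanking histone regions are single on their flank, so their side rests on this reading and not on their own distances.

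On this reading the histone regions with the highest control levels were those on the 5′ side. The H4 regions on 5A ended 320 bp (CpG) and 282 bp (CHG) from the 5′ end of the gene, and the H2B.5 region on 3B ended 239 bp from it. These 3 regions, of 2 genes, had levels of 40.4% to 60.2% in the ultrasound library and 57.0% to 75.7% in the control library, and all 3 were lower. In the ultrasound library the H4 region over the gene on 6B and the H3 region on 7D also stood in that range of levels. Listed CHG regions on the 5′ side had medians of 17.4% in the ultrasound library and 23.8% in the control library, and 75.9% of them were lower. Listed CpG regions on the 5′ side had medians of 40.9% in the ultrasound library and 59.4% in the control library, and 69.9% of them were lower. For listed regions overlapping genes the control medians were 19.4% in CHG and 43.6% in CpG, and on the 3′ side 22.1% and 55.1%. The 5′ side thus had the highest control median over the lists too. Regions on the 3′ side were those of the H3 gene on 1D, 1545 bp from the gene, and of the H2B gene on 4B, 455 bp from it. The H3 region had one of the 3 increases, and the H2B region had no control level.

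**Figure D2:**
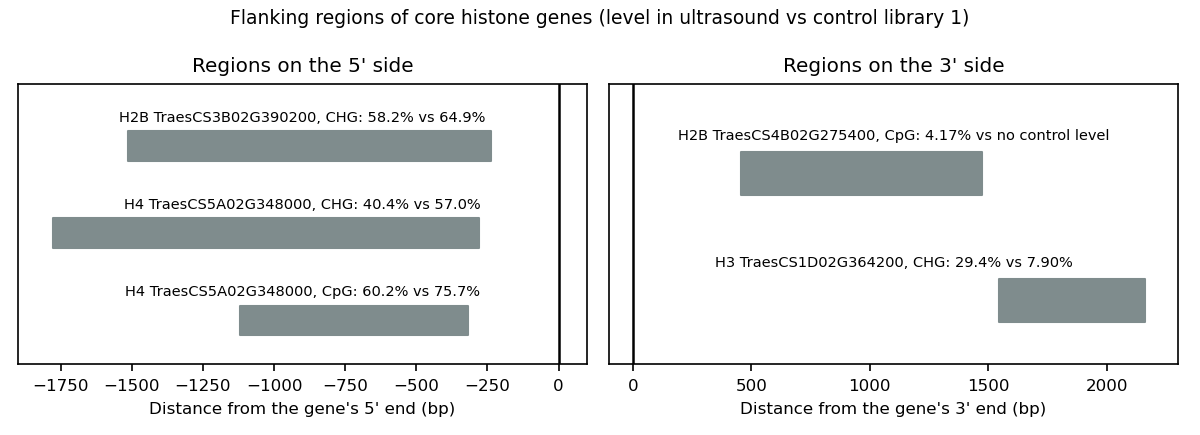
Position of the 5 flanking histone regions as bars along the distance in bp from the nearest gene end (x axis), with the 5′ side in the left panel and the 3′ side in the right panel. Text gives the level in ultrasound library 1 and then in control library 1. The 3 regions on the 5′ side were all above 40% in both libraries.

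Regions that overlapped a histone gene had moderate levels. The 5 with both levels ran from 7.95% to 51.6% in the ultrasound library and from 13.5% to 35.0% in the control library, with 3 lower and 2 higher and a median difference of -5.56 points. Of them, 4 were CHG regions, with 3 lower, and listed CHG regions overlapping genes were lower in 80.6% of cases. The fifth was the CpG region of the H4 gene on 6B.

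By context, 5 of 7 CHG regions with both levels were lower, or 71.4%, and over all listed CHG regions 78.2% were lower. Their median difference was -6.62 points, against -8.87 points over all listed CHG regions. The 2 CpG regions with both levels had opposite directions, and over all listed CpG regions 71.7% were lower. The CHG share was near that of its list, and 2 CpG regions are too few for a share.

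The increases started from low levels. The 3 higher regions had control levels of 7.90%, 14.6% and 17.6%, and the 6 lower ones had control levels of 13.5% to 75.7%. The single lower region that started under 20% was that of the H2A gene on 1A. The lists as a whole showed the same tilt: of listed CHG regions with a control level under 20%, 31.7% were higher, against 12.5% of those at 20% or more, and in CpG the shares were 58.9% and 17.7%. A difference that contains the control level is tied to it, and the bound of 20% was chosen after the values were seen, so this is a description only.

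**Figure D3:**
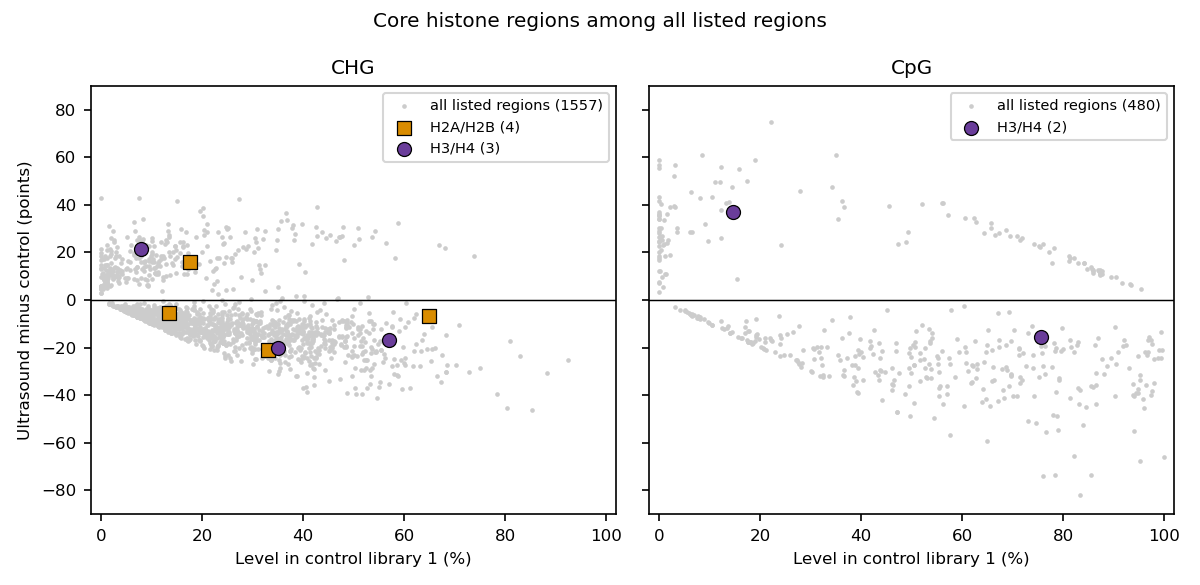
Difference in percentage points, ultrasound minus control (y axis), against the level in control library 1 in percent (x axis), for CHG in the left panel and CpG in the right panel. Grey points are all listed regions with both levels, and large symbols are the histone regions (squares for H2A and H2B, circles for H3 and H4). The 3 histone increases lie at control levels under 20%.

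The wheat genome has A, B and D subgenomes, and histone regions came from each. All 3 regions on A chromosomes were lower, from 2 genes, and 2 of these regions were overlapping stretches at 1 gene. On B chromosomes 2 of 3 were lower, and on D chromosomes 1 of 3. Over all listed CpG and CHG regions 76.7% were lower, and this share was not computed for each subgenome. With so few histone regions the counts by subgenome are only a list of where the values lay. The histone genes were scattered: genes on a shared chromosome were 6.20 Mb apart on 1D, 134 Mb apart on 3B and 143 Mb apart on 7D. One other gene had a listed region within 100 kb of a histone region, TraesCS7D02G118400, whose CpG region was at 0.909% in the ultrasound library and 8.77% in the control library.

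Control levels were missing for 2 of the 11 histone regions, and ultrasound levels for none. Among all listed CpG and CHG regions, 8.87% had an ultrasound level and no control level. The missing levels concern an H2B and an H3 gene, 1 of each class compared above. Copies of a histone gene can be nearly identical, so reads over the coding sequence may have come from another copy; how such reads were treated is not given in the sources used here, and their part in the regions over genes was not tested.

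Other genes of chromatin and DNA copying could be found only among the 441 of 2811 listed genes that carry a description. Of the words searched for, 6 regions of 6 genes matched, with 4 lower and 2 higher, or 66.7% lower. Without 1 chance match, named below, 3 of 5 were lower, or 60%. Of all listed regions of described genes, 76.0% were lower. The methyltransferase gene TraesCS4A02G102700, described as a DNA (cytosine-5)-methyltransferase, which adds methyl groups to DNA, was at 19.5% in the ultrasound library and 3.91% in the control library in CHG over the gene. SET domain group 37 (TraesCS4D02G039300, a name projected from Arabidopsis), of a family that includes histone methyltransferases, was at 20.8% in the ultrasound library and 1.30% in the control library in CHH, on the 3′ side. The lower ones were 3 DNA polymerase genes, with names projected from Arabidopsis, and 1 chance match. The small subunit of polymerase delta (TraesCS4B02G321500), a replicative polymerase, was at 0.350% in the ultrasound library and 4.89% in the control library in CHG. Polymerase eta (TraesCS3B02G329300), which copies past damaged bases, was listed at 0% in the ultrasound library and at 6.76% in the control library in CHH. Polymerase kappa (TraesCS4A02G234800), of the same kind, was at 0.249% in the ultrasound library and 11.4% in the control library in CHH. All 3 polymerase regions lay on the 5′ side. The chance match was a ribosome-recycling factor gene (TraesCS2D02G205900), found through letters inside a word and no chromatin gene, at 51.0% in the ultrasound library and 59.2% in the control library in CHG.

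The histone H3.2 gene outside the 10 (TraesCS7B02G019000, plus strand) was listed in CHH, where no other described gene was a histone gene. Its region (7B, 16138569 to 16138988) lay on the 3′ side, 2090 bp from the gene, at 17.1% in the ultrasound library and 1.02% in the control library. Over all listed CHH regions 77.1% were lower, and this one was higher. With it, the H3 gene on 1D and the SET domain gene, 3 regions of these lists that lay on the 3′ side of a histone or chromatin gene had both levels, and each was higher in the ultrasound library. The shares lower over all listed regions on the 3′ side were 73.3% in CHG and 80.8% in CHH. The ribosome-recycling factor region also lay on the 3′ side and was lower. This grouping was made after the values were seen and was not tested.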

How the data were processed

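Genomic DNA was converted enzymatically and sequenced, per the labels' protocols; the titles read WGBS (whole-genome bisulfite sequencing). The tools named, without roles, are Bismark 0.23.1, Trim Galore 0.6.7, FastQC 0.11.9 and edgeR, per the submitters' processing notes. The authors deposited 3 lists of regions with methylation levels in percent, whose names refer to edgeR and a chi-square test, per the file headers. The genome build is not given in the sources used here; nor are thresholds, coverage or how regions were defined. Only selected regions are listed, so shares describe the lists and not the genome. Another deposited column, the number of lists, holds 2 in every row.

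Members were matched by identifier, and a region without both levels was left out of directions and medians. The members, word lists and comparisons were chosen with earlier results of these data known. All 10 members are named; of the other chromatin genes, every match is named. With 1 library per group no p-value is given. The side of a flanking region was taken from its orientation word by the rule described in the text. Distances and strands entered only through the pairs of regions that gave this rule. The reference gene table held 0 of the 10 identifiers, and no sequence is shown. Computations used Python 3.11.15 and pandas 2.3.3. Other settings tried were a smallest difference of 10 or 20 points, genes counted once, overlapping regions only, all histone rows, means and log2 odds.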

Additional observations from a re-analysis of the deposited data

How the results depend on the processing

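No paired analysis was possible because levels of 1 library per group were analysed, and leaving out a replicate was not possible for the same reason. Among regions differing by at least 10 points, the histone median was -15.5 points, 3 of 5 CHG regions were lower, and 1 of 3 other chromatin regions was lower, so the majority there turned. Among those differing by at least 20 points, 1 of 3 histone regions was lower, the median was 21.5 points, and H2A and H2B minus H3 and H4 was -50.4 points. That class difference, 9.45 points over regions, was -8.80 with each gene counted once, -14.1 over overlapping regions (3 of 5 lower), -6.38 with all histone rows and -5.63 with means, so it has no stable sign. The mean difference was -1.22 points. Of regions with the word upstream 0 of 1 was lower, and with the word downstream 3 of 3. Read by the rule from the pairs, an alternative added after the data were seen, the same regions only change labels. Then 3 of 3 on the 5′ side and 0 of 1 on the 3′ side were lower. This swap was fixed by the rule and is no test. None of the other 14 values turned direction, and those in points or counts lay within 1.5 times. Depth is unknown and limits every level.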

Other observations

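The reading of the orientation words bears on the whole series. Of the listed flanking regions, those marked downstream number 149 in CpG, 367 in CHG and 287 in CHH, and those marked upstream number 141, 335 and 245. If the rule seen in the pairs of regions that fix a gene edge holds for all of them, the regions marked downstream lie on the 5′ side of their genes and those marked upstream on the 3′ side; for regions outside these pairs the distances alone do not show it. Of the 97 such pairs, 45 carried the word downstream and 52 the word upstream, and none went the other way.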
